A study of Arabidopsis thaliana with 24 samples.

Results

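Leaves of an Arabidopsis thaliana line carrying M6PR were compared with leaves of Col plants, both grown without added salt, on Affymetrix ATH1 arrays. M6PR is mannose-6-phosphate reductase, a celery enzyme of mannitol synthesis, and the samples' source names call the plants M6PR OX. The comparison used 2 M6PR arrays and 2 Col arrays of the 24 arrays in the series, chosen by title, and all 22746 probe sets that are not array controls out of 22810. The M6PR plants carried the transgene in the Col-0 background and received 0 mM NaCl. The Col plants were wild-type Col-0 at 0 mM NaCl. A further wild type labelled Col(gl), a glabrous (hairless) Columbia, also at 0 mM with 2 arrays, is given beside the genes whose levels are shown. M6PR and Col plants at 100 mM NaCl, with 2 arrays each, served as a further comparison; their salt began at day 14, was raised in steps of 50 mM and lasted 6 days. Every plant was 20 days old counted from sowing, grew with 10 h light and 14 h dark per day, and each sample pooled leaves of at least 15 seedlings. The other arrays were of wild-type Ws, a CBF3 line and an SOS1 line, each at 0 and 100 mM NaCl, and of Col(gl) at 100 mM. They entered the fit over the 24 arrays that gave the SE and p-values. The series asks how single salt-resistance transgenes change the leaf transcriptome with and without salt. The labels name neither the promoter of the transgene nor the number of independent transformants.

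Mannose-6-phosphate reductase makes mannitol-1-phosphate from mannose-6-phosphate, and a phosphatase then releases mannitol. Mannitol is a sugar alcohol that celery makes and transports as a product of photosynthesis, whereas Arabidopsis normally makes little or none. Mannose phosphates also feed cell-wall mannan and ascorbate synthesis in plants, and sugars act as signals that repress genes of carbon starvation and favour anthocyanin synthesis in leaves.

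No probe set for the celery gene was named in the annotation used here, so the transgene did not check the labels. The description text of the M6PR samples names the Ws background, against their title and background label. At 14 probe sets that were at least 3 log2 units dimmer in the wild-type Ws arrays than in every Col, Col(gl) and SOS1 array, both M6PR arrays were nearer the Columbia level at all 14, with median levels of 9.08 and 8.94, against 9.19 and 9.15 in Col and 4.27 and 4.01 in Ws. Here and below, a listed gene is called measured only if a probe set has it as its single listed gene in the annotation used. The others may still have a probe set that is unnamed here. The leaf label was set against 10 measured photosynthesis genes of 45 listed. They lay between 11.52 and 13.79 in M6PR and between 11.89 and 13.86 in Col, and none of the 10 passed the test. The 3 measured root markers of 13 lay between 3.84 and 5.0 in M6PR and between 4.22 and 4.90 in Col. The median signal was 5.85 and 5.94 in the M6PR arrays and 5.92 in both Col arrays, and the SD of the difference between the 2 replicates over probe sets was 0.28 in M6PR and 0.18 in Col.

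Between M6PR and Col without salt, 2346 probe sets passed an adjusted p of 0.05 (limma, Benjamini-Hochberg over 22746 probe sets), which is 10.3% of those tested. Of these, 1108 were higher in M6PR (4.87%) and 1238 were lower (5.44%). The lists and families below hold probe sets with a single listed gene, of which 9.07% passed. The lists were chosen with earlier results of these data known. A list count beside a share of all probe sets therefore describes the list and does not test it. The larger changes were mostly rises: 312 probe sets rose at least 4-fold and 127 fell at least 4-fold, while 45 rose and 3 fell at least 16-fold. Levels and differences are on the deposited log2 scale throughout, where a difference of 1 is 2-fold, and n = 2 arrays per group. Fewer probe sets passed when any 1 of the 4 arrays was left out, which leaves 1 array in a group and lowers the precision. A call lost that way, here or below, is therefore not read as a dependence on that array.

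Among probe sets with a single listed gene, the 4 largest rises were in EXLA1, AT3G15630, AT3G15450 and EXO. Over all probe sets the largest rise was 7.45 and the largest fall -4.84. EXLA1, an expansin-like cell-wall protein, was at 11.59 and 11.62 in M6PR, against 4.68 and 4.77 in Col, and at 11.39 and 11.36 in Col(gl). Its difference from Col was 6.88 ± 0.86 (SE, limma adjusted p = 0.00025), while its difference from Col(gl) was 0.23. AT3G15630 was at 11.21 and 11.11 in M6PR, against 4.60 and 4.34 in Col, and at 11.11 and 11.19 in Col(gl). Both genes were thus high in M6PR and in Col(gl) and low in both Col arrays. AT3G15450, a dark-inducible gene, was at 12.76 and 12.72 in M6PR, against 6.63 and 6.90 in Col, and at 12.55 and 12.52 in Col(gl). EXO (EXORDIUM, a brassinosteroid-responsive gene of cell expansion) was at 11.51 and 11.91 in M6PR, against 5.77 and 5.90 in Col, and at 11.85 and 11.84 in Col(gl). The 2 differences from Col were 5.98 ± 0.97 and 5.88 ± 0.97 (SE, limma adjusted p = 0.0012 and 0.0013).

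The other 11 of the 15 largest rises among probe sets with a single listed gene had differences between 4.17 and 5.63. They included AT5G19120 of the aspartyl protease family (5.47), the pectin methylesterase ATPMEPCRB (4.39), AT5G61590, known as the wax synthesis repressor DEWAX (4.32), and the calmodulin-like calcium sensor CML38 (4.17). AT5G19120 was at 11.50 and 11.45 in M6PR, against 5.94 and 6.08 in Col, and at 11.44 and 11.36 in Col(gl). AT5G61590 was at 11.81 and 11.72 in M6PR, against 7.33 and 7.55 in Col, and at 11.74 and 11.70 in Col(gl), so in these 2 genes as well the M6PR and Col arrays lay far apart. The remaining 7 were AT3G59350, AT1G50040, AT2G25735, AT1G02660, AT1G54740, AT1G19380 and AT1G22890. Over the 15, single arrays lay between 8.92 and 12.76 in M6PR and between 4.07 and 7.55 in Col, with Col(gl) between 8.71 and 12.55. In 11 of the 15 the Col mean was under the median signal of the arrays, and detection calls were not analysed here. CML38 alone among the 15 lost its call when an array was left out, with an adjusted p between 0.055 and 0.066 (limma).

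**Figure D1:**
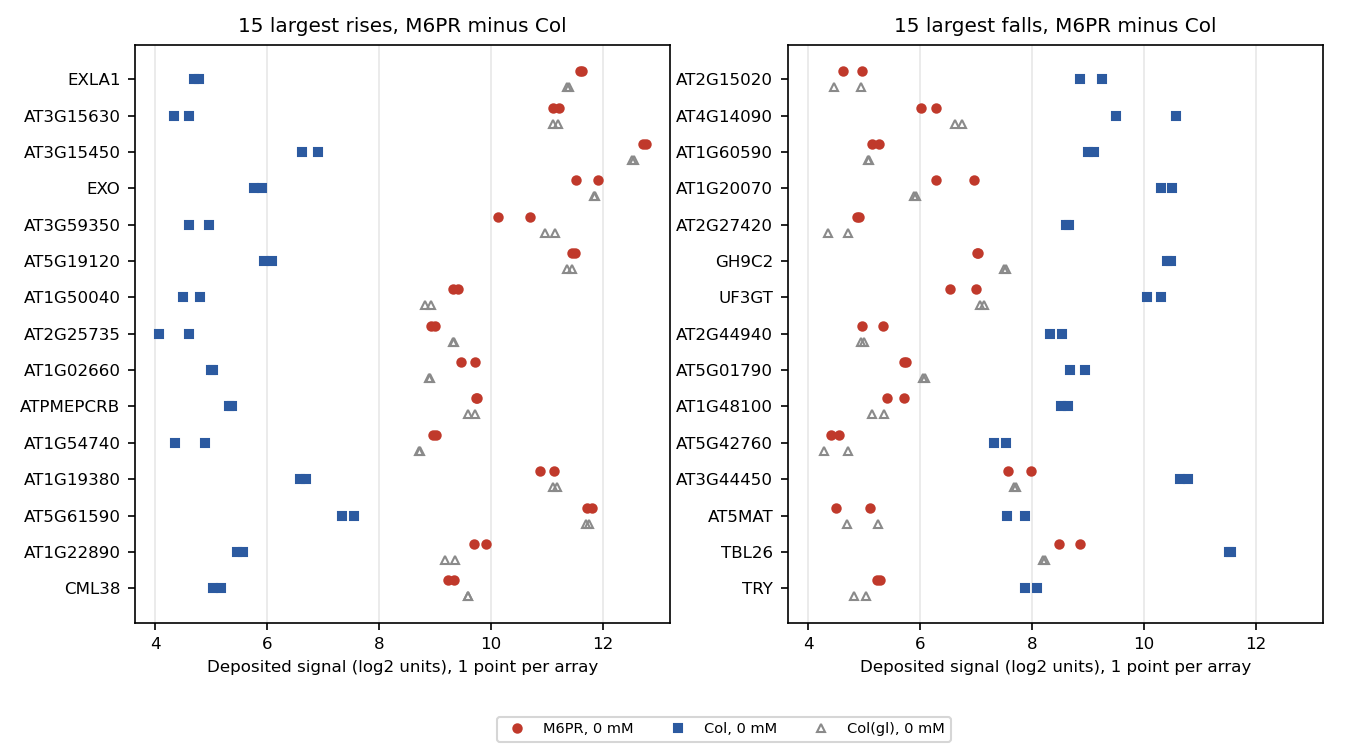
Deposited log2 signal (horizontal axis) of the 15 genes with the largest rises (left) and the 15 with the largest falls (right), 1 point per array, for M6PR (filled circles), Col (squares) and Col(gl) (open triangles) at 0 mM NaCl. The M6PR and Col points do not overlap for any of the 30 genes, which their selection required (56.2% of all probe sets do not overlap), and the Col(gl) points lie beside the M6PR points.

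The 15 largest falls among probe sets with a single listed gene began with AT2G15020. AT2G15020 was at 4.96 and 4.62 in M6PR, against 9.25 and 8.86 in Col, and at 4.94 and 4.47 in Col(gl), a difference from Col of -4.27 ± 0.58 (SE, limma adjusted p = 0.00041). AT1G60590, of the polygalacturonase family, was at 5.15 and 5.26 in M6PR, against 9.10 and 9.0 in Col, and at 5.08 and 5.07 in Col(gl). GH9C2, a family 9 endoglucanase, was at 7.04 and 7.02 in M6PR, against 10.48 and 10.41 in Col, and at 7.53 and 7.5 in Col(gl). All 3 genes were low in M6PR and Col(gl) and high in both Col arrays. The others were AT4G14090, AT1G20070, AT2G27420 of the papain-like cysteine proteases, UF3GT, AT2G44940, AT5G01790, AT1G48100, AT5G42760, AT3G44450, AT5MAT, TBL26 and TRY, with differences between -3.89 and -2.73. Over the 15 falls, single arrays lay between 4.42 and 8.86 in M6PR and between 7.33 and 11.55 in Col, with Col(gl) between 4.28 and 8.23. In 9 of the 15 the M6PR mean was under the median signal of the arrays.

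Setting M6PR against the other Columbia wild type gave few calls. Between M6PR and Col(gl) at 0 mM, 8 probe sets passed (limma, adjusted p of 0.05), or 0.0352% of those tested, with 3 higher (0.0132%) and 5 lower (0.022%), and 797 had an unadjusted p under 0.05. The split was 21 higher and 7 lower without replicate 1 of Ws and of Col at 100 mM, and 164 higher and 97 lower with array weights. This comparison uses the same M6PR arrays as the one against Col. For the 30 genes with the largest changes, differences from Col(gl) lay between -0.64 and 0.72, and none of the 30 passed. At all 30 genes the 2 Col arrays lay apart from the M6PR and Col(gl) arrays. Over all probe sets the Col arrays correlated at 0.97 to 0.974 with the wild-type Ws arrays at 0 mM, another accession. Their correlation was 0.955 to 0.96 with M6PR and 0.949 to 0.95 with Col(gl), while M6PR and Col(gl) correlated at 0.987 to 0.993. Why the Col arrays lay apart was not tested.

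Of 38 listed genes of sugar starvation and darkness, which plants turn on when carbon runs short, 11 were measured, 7 rose and none fell, against 4.87% of all probe sets that rose. This list was chosen with earlier results of these data known, so nothing is read from its count against that share. The median difference of the 11 was 1.72 against Col and 0.21 against Col(gl). Over all probe sets it was -0.05 against Col. Beside AT3G15630, AT3G15450 and AT5G19120, AKINBETA1, a regulatory subunit of the energy sensor kinase SnRK1, was at 9.78 and 9.38 in M6PR, against 6.65 and 6.67 in Col, and at 9.08 and 9.06 in Col(gl), a difference from Col of 2.92 ± 0.47 (SE, limma adjusted p = 0.0012). MCCA, a subunit of the leucine-degrading methylcrotonyl-CoA carboxylase, rose by 1.73, the ubiquitin ligase gene ATL8 by 1.71 and the transcription factor gene BZIP53 by 1.72. In Col(gl) MCCA was at 8.05 and 8.01, ATL8 at 6.43 and 6.66 and BZIP53 at 10.74 and 10.64. BZIP53 lost its call without any 1 of the 4 arrays, with its difference between 1.64 and 1.80. The 4 that did not pass were MCCB at 0.06, IVD at 0.18, ALDH6B2 at 0.57 and AT2G05540 at 0.62. MCCB encodes the other subunit of the carboxylase, and it was at 8.44 and 8.21 in M6PR, against 8.37 and 8.15 in Col, and at 8.28 and 8.13 in Col(gl), so the groups overlapped.

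Anthocyanin and flavonol genes were lower. Of 32 listed genes of flavonoid and anthocyanin synthesis 7 were measured, 6 fell and none rose, against 5.44% of all probe sets that fell. This list was chosen in the same way, so nothing is read from its count against that share either. The median difference of the 7 was -2.71 against Col and -0.11 against Col(gl). AT4G14090, the anthocyanin 5-O-glucosyltransferase gene, was at 6.29 and 6.02 in M6PR, against 9.51 and 10.57 in Col, and at 6.75 and 6.63 in Col(gl), a difference from Col of -3.89 ± 0.57 (SE, limma adjusted p = 0.00065). UF3GT, which adds xylose to anthocyanins, was at 7.0 and 6.53 in M6PR, against 10.05 and 10.29 in Col, and at 7.15 and 7.07 in Col(gl). AT5MAT, the anthocyanin malonyltransferase, was at 5.10 and 4.50 in M6PR, against 7.87 and 7.56 in Col, and at 5.25 and 4.70 in Col(gl). All 3 enzymes decorate the finished pigment. Their M6PR and Col arrays did not overlap, which their selection among the largest falls required (56.2% of all probe sets do not overlap). UGT78D2, the flavonoid 3-O-glucosyltransferase, CHIL, a chalcone isomerase-like protein, and UGT78D1, the flavonol rhamnosyltransferase, also fell, with differences of -2.71, -2.55 and -2.23. In Col(gl) UGT78D2 was at 7.07 and 7.08, CHIL at 6.61 and 6.49 and UGT78D1 at 7.57 and 7.10. DFR, the first enzyme committed to anthocyanins, was at 10.46 and 9.15 in M6PR, against 11.30 and 11.46 in Col, and at 9.42 and 9.41 in Col(gl), a difference from Col of -1.58 ± 0.72 that did not pass (SE, limma adjusted p = 0.23).

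**Figure D2:**
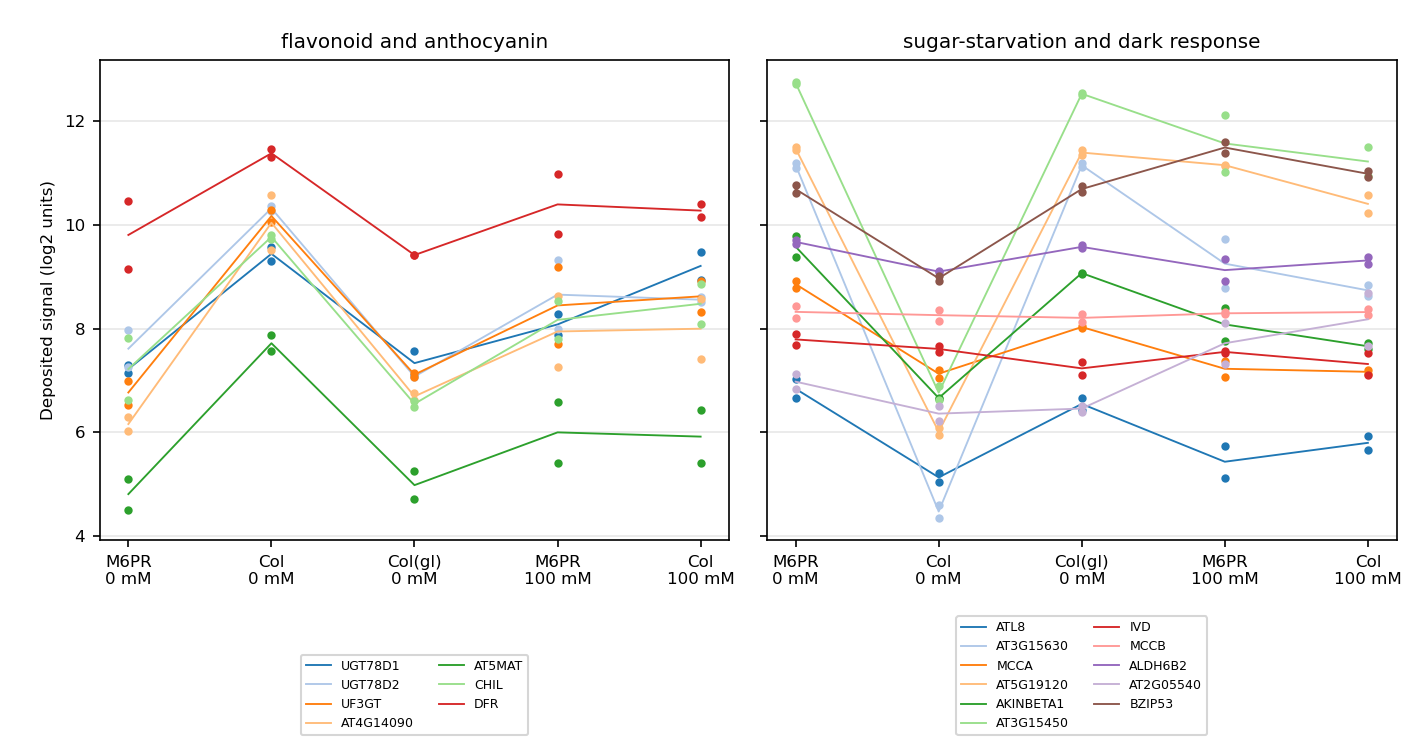
Deposited log2 signal (vertical axis) of the 7 measured flavonoid and anthocyanin genes (left) and the 11 measured sugar-starvation genes (right) in M6PR, Col and Col(gl) at 0 mM NaCl and in M6PR and Col at 100 mM. Points are single arrays and lines join group means of a gene to guide the eye; at 0 mM the 6 flavonoid genes that fell are highest in Col and the 7 starvation genes that rose are lowest there.

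Cell-wall loosening genes moved both ways. Of 39 listed genes of cell expansion 15 were measured, 5 rose and 4 fell, against 4.87% and 5.44% of all probe sets. Their median difference was 0.70 against Col and 0.03 against Col(gl). The expansin-like genes EXLA1 and EXLA2 rose, as did the xyloglucan-remodelling enzymes XTH18 and XTH33, while the expansins EXPA4, EXPA8, EXPB1 and EXPB3 fell. EXLA2 was at 8.36 and 8.60 in M6PR, against 4.96 and 5.12 in Col, and at 8.06 in both Col(gl) arrays. EXPA8 was at 5.73 and 5.95 in M6PR, against 8.70 and 8.38 in Col, and at 5.88 and 5.80 in Col(gl). The 2 genes thus differed from Col in opposite directions, by 3.44 and -2.70. XTH33 rose by 3.16 and lost its call without any 1 of the 4 arrays, with an adjusted p between 0.081 and 0.14; EXPB1 fell by 1.98 and lost it without some of them, with an adjusted p between 0.042 and 0.082 (both limma). In Col(gl) XTH18 was at 7.28 and 7.48, XTH33 at 7.39 and 7.38, EXPA4 at 7.56 and 7.5, EXPB1 at 6.44 and 6.29 and EXPB3 at 6.90 and 6.81. The other 6 measured members did not pass, among them XTH16 with a difference of 2.21 (limma adjusted p = 0.067).

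Each family count here and below is to be set beside the 9.07% of single-gene probe sets that passed. In whole families found by gene symbol, 7 of 19 expansin and expansin-like probe sets passed, 2 higher and 5 lower. Of 10 xyloglucan endotransglucosylases 4 passed, 3 higher and 1 lower. Leaving out 1 array moved the first count to between 4 and 6 and the second to between 1 and 2. Of 51 UDP-glycosyltransferases, which attach sugars to small molecules, 2 rose and 11 fell, and 7 to 9 passed without 1 array. UGT72B3 fell by 1.49 beside UGT78D1 and UGT78D2. Of 8 cellulose synthase-like genes 2 rose and 2 fell, among them the glucomannan synthase genes CSLA03, at 9.0 and 8.90 in M6PR, against 6.01 and 5.98 in Col and 8.57 and 8.75 in Col(gl), and CSLA01, at 8.60 and 7.01 in M6PR, against 10.22 in both Col arrays and 7.19 and 7.30 in Col(gl). At most 1 of these 4 passed when an array was left out.

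The mannose, mannitol and ascorbate genes nearest to the introduced enzyme did not pass in the main fit. Of 29 listed, 7 were measured, and their differences from Col lay between -0.87 and 0.32 with a median of 0.03. The share of all single-gene probe sets that passed was 9.07%. PMM, phosphomannomutase, was at 9.95 and 9.88 in M6PR, against 10.44 and 10.29 in Col, and at 10.36 and 10.31 in Col(gl) (limma adjusted p = 0.15). GME, GDP-mannose epimerase of ascorbate synthesis, was at 10.31 and 10.14 in M6PR, against 10.38 and 10.31 in Col, and at 10.22 and 10.11 in Col(gl). VTC4, L-galactose-1-phosphate phosphatase, had the lowest value, -0.87 ± 0.29 (SE, limma adjusted p = 0.072), and was at 9.04 and 9.17 in Col(gl). With array weights 2 of the 7 passed, both lower, and 2 passed lower in a fit of only the 4 compared arrays. In a separate fit of the M6PR and Col arrays at both salt levels 1 passed, also lower. A p above the threshold does not show that these genes were equal in the 2 lines.

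Of 38 listed touch and rapid stress genes, which respond within minutes to handling or elicitors, 14 were measured. Of these 5 rose, against 4.87% of all probe sets: CML38, STZ, WRKY22, PUB23 and CML42. WRKY22, a defence transcription factor gene, was at 7.61 and 7.63 in M6PR, against 4.40 and 4.37 in Col, and at 7.42 and 7.02 in Col(gl), a difference from Col of 3.23 ± 0.33 (SE, limma adjusted p = 6.6e-05). STZ, a zinc-finger repressor of stress genes, rose by 3.32 and was at 9.52 and 9.59 in Col(gl). Without any 1 of the 4 arrays 2 of the 5 passed. In Col(gl) PUB23 was at 7.73 and 7.41 and CML42 at 8.91 and 8.92. The other 9 had differences between -0.46 and 0.94, and the list's median was 0.68 against Col and -0.11 against Col(gl). Of 4 measured cold-response genes of the CBF regulon the dehydrin genes LTI30 (2.01) and COR47 (1.14) rose, against 4.87% of all probe sets. Both lost their call for some arrays left out, with LTI30 between 1.63 and 2.38 and COR47 between 0.98 and 1.31. In Col(gl) LTI30 was at 8.42 in both arrays and COR47 at 11.10 and 10.92. COR15B was at 9.01 and 10.67 in M6PR, against 8.93 and 9.01 in Col and 11.54 and 11.46 in Col(gl), and did not pass. COR15A was at 10.66 and 11.26 in M6PR, against 11.24 and 11.18 in Col and 11.91 and 11.79 in Col(gl). Its difference from Col was -0.25 and did not pass either. The median difference of the 4 was 1.01 against Col and -0.72 against Col(gl).

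The 3 measured glucosinolate genes of 23 listed fell, against 5.44% of all probe sets. The differences were -1.26 in AT2G31790, -1.11 in the thiohydroximate glucosyltransferase gene UGT74B1 and -0.86 in BCAT4, which starts methionine chain elongation. With 1 array left out AT2G31790 lay between -1.34 and -1.19 and kept its call. UGT74B1 (-1.47 to -0.75) lost its call for some arrays left out and BCAT4 (-0.89 to -0.82) for all. Their levels in Col(gl) were 9.43 and 9.36 for AT2G31790, 9.49 in both arrays for UGT74B1 and 11.59 and 11.60 for BCAT4. Of 5 measured antioxidant genes CCS, the copper chaperone of superoxide dismutase, rose, where 4.87% of all probe sets did. CCS was at 9.41 and 9.75 in M6PR, against 8.19 and 8.29 in Col, and at 9.62 and 9.59 in Col(gl). SAG101, a defence signalling gene, rose by 0.81 and the auxin-response gene IAA29 fell by 0.84. Neither kept its call when an array was left out, with differences between 0.73 and 0.89 for SAG101 and between -0.91 and -0.77 for IAA29. In Col(gl) SAG101 was at 6.21 and 6.34 and IAA29 at 4.38 and 4.83. None of the measured jasmonate (2), abscisic acid (2), clock (1), heat-shock (1) or senescence (1) genes passed. The jasmonate marker PDF1.2 was at 11.71 and 8.12 in M6PR, against 10.75 and 10.44 in Col and 10.50 and 10.42 in Col(gl), so that the M6PR arrays lay on both sides of Col.

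All 3 measured trichome genes of 11 listed passed, in both directions, against 9.07% of all single-gene probe sets. Col(gl), given beside them, is the glabrous wild type, and the part of that in these levels was not tested. TRY, a repressor of trichome initiation, was at 5.22 and 5.28 in M6PR, against 8.09 and 7.88 in Col, and at 5.04 and 4.82 in Col(gl). GIS, a zinc-finger promoter of trichome initiation, was at 5.60 and 5.78 in M6PR, against 7.98 and 7.78 in Col, and at 5.41 and 5.64 in Col(gl). It lost its call without 1 Col array, and with any 1 array left out its difference lay between -2.29 and -2.09. AT5G06700 (TRICHOME BIREFRINGENCE, needed for crystalline cellulose) was at 10.09 and 9.99 in M6PR, against 8.75 and 8.73 in Col, and at 9.75 and 9.69 in Col(gl). The summed linear signal of the 3 was 1110 to 1180 in M6PR, 881 to 955 in Col and 905 to 934 in Col(gl); AT5G06700 is the brightest of the 3 and carries most of it, while the list's median difference from Col was -2.19, and the part of trichome cells in the other results was not tested. In whole leaves, more cells of a type and more RNA per cell cannot be told apart. Neither of the 2 measured guard-cell genes of 9 passed.

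Of 16 SWEET sugar transporter probe sets 3 fell, with differences of -1.66 in SWEET1, -0.69 in SWEET17, a vacuolar fructose carrier, and -0.53 in AtVEX1, and 1 of the 3 passed without any 1 array. In Col(gl) SWEET1 was at 6.50 and 6.70, SWEET17 at 8.58 and 8.65 and AtVEX1 at 4.18 and 4.17. Of all single-gene probe sets 9.07% passed, and nothing about a family in this paragraph is read from a count near that share. Of 20 bZIP factor genes 3 rose, including BZIP61 at 8.15 and 8.09 in M6PR, against 5.41 and 5.28 in Col, and at 7.55 in both Col(gl) arrays; 1 to 2 passed without 1 array. Of 22 cytochrome P450 genes 5 fell and none rose, and 1 to 2 passed when an array was left out. Of 24 trichome birefringence-like probe sets 2 rose and 3 fell, of which 1 passed without any 1 array; TBL26 was at 8.86 and 8.48 in M6PR, against 11.52 and 11.55 in Col, and at 8.20 and 8.23 in Col(gl). Among 7 bHLH genes bHLH121 rose by 1.43 and bHLH34 fell by 2.01, with bHLH121 at 8.80 and 8.76 and bHLH34 at 5.79 and 5.96 in Col(gl). Of 13 glutathione S-transferases 2 fell, GSTU16 and GSTU23, and 0 to 2 passed without 1 array. In Col(gl) GSTU16 was at 7.30 and 7.37 and GSTU23 at 4.29 and 4.68. Among 22 beta-glucosidases BGLU16 rose by 1.91 and BGLU47 fell by 1.93, a share near the 9.07% of all single-gene probe sets. Both lost their call for some arrays left out, with differences between 1.81 and 2.01 and between -2.12 and -1.74. In Col(gl) BGLU16 was at 9.03 and 9.01 and BGLU47 at 5.83 and 6.06. Of 8 calmodulin-like genes CML30, CML38 and CML42 rose, and 1 passed without any 1 array, while of 7 WRKY genes WRKY22 and WRKY47 rose, with 1 to 2 passing without 1 array. Of 9 plant U-box genes PUB23 rose and of 7 Aux/IAA genes IAA29 fell, neither of which passed without 1 array, and none of 6 peroxidases passed.

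**Figure D3:**
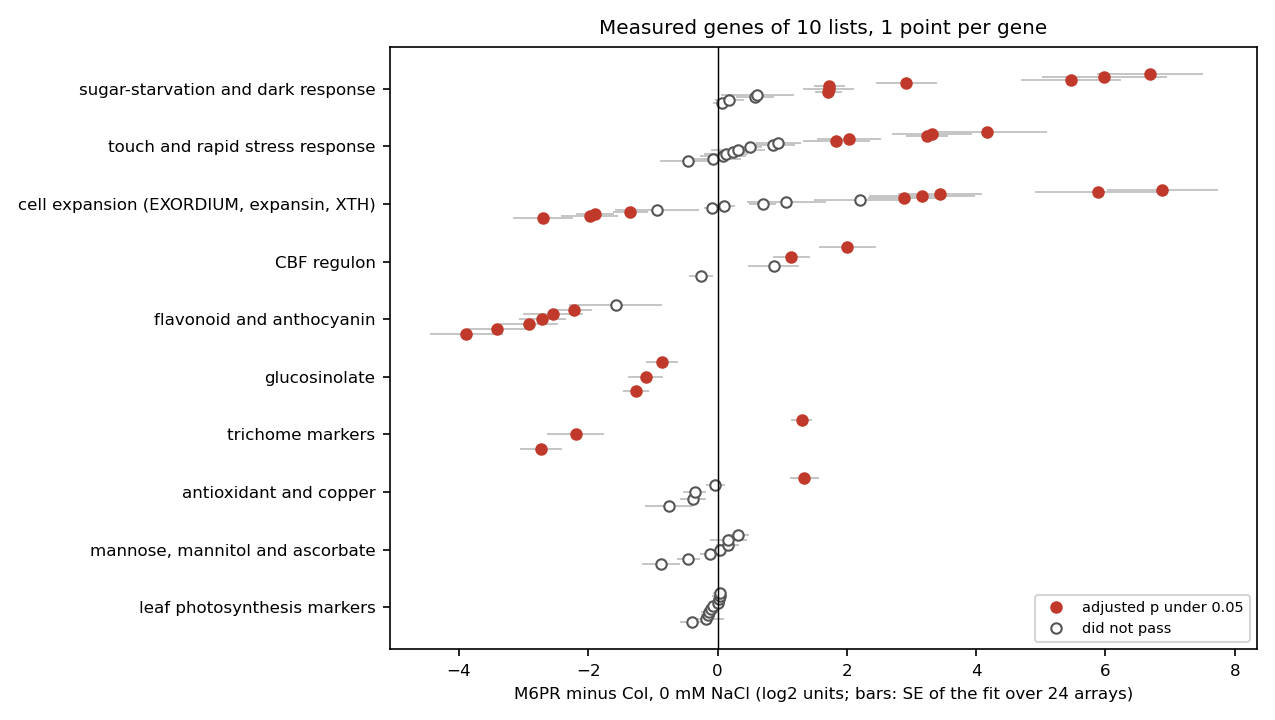
Difference between M6PR and Col at 0 mM NaCl (horizontal axis, log2 units) for each measured gene of 10 lists, with filled points for an adjusted p under 0.05, open points for the rest and bars for the SE. Starvation genes that passed lie to the right, flavonoid and glucosinolate genes that passed lie to the left, and cell-expansion genes lie on both sides.

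Between the same 2 genotypes at 100 mM NaCl, 120 probe sets passed (limma, adjusted p of 0.05), or 0.528%, with 39 higher (0.171%) and 81 lower (0.356%) in M6PR. An unadjusted p under 0.05 was found for 5304 probe sets there and for 4618 at 0 mM, so which salt level had more differences depends on the threshold. The replicate difference had an SD of 0.52 in M6PR and 0.41 in Col at 100 mM. In replicate 1 of Col at 100 mM the actin control's 3' signal exceeded its 5' signal by 1.61, against 0.88 in replicate 2, and the GAPDH control's by 0.31, against 0.02; the part of this in the results at 100 mM was not tested. None of the 30 genes above passed there, with differences between -0.86 and 2.06. The test of the change in difference between salt levels passed for 1382 probe sets (6.08%) and for 27 of the 30 genes. The 30 were chosen by their difference at 0 mM, which is a term of this test, so nothing is read from that share; of the 2346 probe sets called at 0 mM 1011 passed it. EXLA1 was at 9.87 and 10.98 in M6PR, against 9.47 and 9.94 in Col, at 100 mM. It differed by 6.88 without salt and by 0.72 with it, and UF3GT by -3.41 without salt and by -0.18 with it. The count of 1382 was 150 without replicate 1 of M6PR at 100 mM, 3860 without its replicate 2, 383 without replicate 1 of Col at 100 mM, and 208 to 627 without 1 of the 4 arrays at 0 mM.

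The calls at the 2 salt levels come from different arrays, but the M6PR replicate differences at 0 and 100 mM had a correlation of 0.55 over probe sets. The calls at both levels had 25 probe sets in common. These were 1.07% of the calls at 0 mM, where 0.528% of all probe sets were called at 100 mM. They were 20.8% of the calls at 100 mM, where 10.3% of all probe sets were called at 0 mM. These were picked after their values were seen. Of the 25, 11 were higher in M6PR at both levels, 11 were lower at both and 3 were higher at 0 mM and lower at 100 mM. AT3G62550 was higher by 2.19 without salt and by 1.02 with it. AT1G78450 was higher by 1.28 and 1.72, and AT1G78460, with a neighbouring locus number, by 1.29 and 1.41. AT5G14700 was lower at both, with differences of -1.81 and -1.75. The probe set 254085_at, which has no single listed gene here, averaged 4.88 in M6PR, against 8.83 in Col and 8.27 in Col(gl) at 0 mM. Its difference was -3.95 from Col without salt, -3.74 from Col with salt and -3.38 from Col(gl), and it passed in all 3 comparisons.

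**Figure D4:**
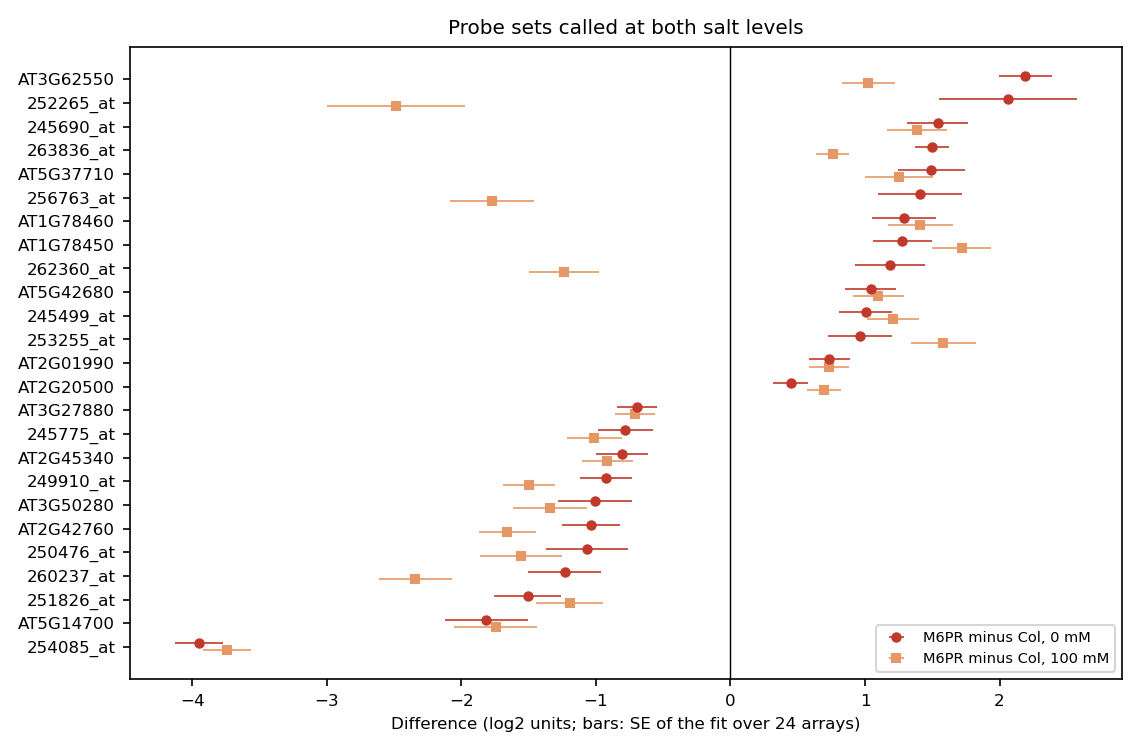
Difference between M6PR and Col (horizontal axis, log2 units) at 0 mM (circles) and 100 mM NaCl (squares) for the 25 probe sets called at both salt levels, with bars for the SE of the fit. Of these, 22 lie on one side of 0 at both salt levels and 3 do not.

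The 8 probe sets called against Col(gl) included 4 single-gene probe sets with nearby locus numbers. AT4G25260 averaged 6.33 in M6PR, 6.32 in Col and 8.35 in Col(gl). AT4G25280 averaged 7.54 in M6PR, 7.66 in Col and 9.10 in Col(gl). TBL18 averaged 7.42 in M6PR, 7.51 in Col and 8.79 in Col(gl), and AT4G25370 averaged 10.03 in M6PR, 10.05 in Col and 11.48 in Col(gl). At all 4 genes M6PR lay near Col and below Col(gl).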

How the data were processed

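Per the submitters' processing notes, GCOS and RMA were used to produce the deposited log2 values, with no version named. Because RMA equalises the arrays, a shift common to most probe sets would shrink. The values, from 2.9 to 14.3, were used as deposited; arrays have no read depth, and their number limits the precision. A model with 12 group means over all 24 arrays was fitted with limma 3.58.1 in R 4.3.3 (12 residual degrees of freedom). Tests were two-sided and p-values were adjusted by Benjamini-Hochberg across the 22746 probe sets left after removing 64 controls. GEO's platform annotation gave 1 gene for 13513 probe sets, several for 503 and none listed for 8730; 13436 were matched to RefSeq TAIR10.1 symbols. Named genes were the 15 largest rises and falls among passing single-gene probe sets whose groups did not overlap, up to 6 passing members per list, and up to 3 per family of at least 5 probe sets. The 23 lists held 451 entries, of which 97 were measured, that is, had a probe set with that single listed gene. The flower, gibberellin, nitrate and phloem lists had none. Other entries may lie on the probe sets with several genes or none listed. The members and lists were chosen with earlier results of these data known. The design text calls the replicates biological; whether each was 1 pot is not stated. The procedure was tested on simulated data with 200 changed probe sets and, for each probe set, the same spread in every group. There 50% of changes of 1 log2 unit and 94% of those of 2 were recovered, and 6 unchanged probe sets were called. The data had 2346 calls and unequal spread, so these rates need not hold for them. Alternatives were another normalization, filters, weights, fewer arrays and a replicate block.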

Additional observations from a re-analysis of the deposited data

Results flagged for a closer look

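The difference between M6PR and Col changed with salt, by the interaction test of limma, in 63 named genes and probe sets, with adjusted p between 0.0015 and 0.049. Of the 81 named genes that passed without salt 55 are among them, and of the 59 that did not pass without salt 5 are; the last 3 are probe sets with no single listed gene, higher in M6PR at 0 mM and lower at 100 mM. The 0 mM difference that chose the 81 is a term of this test, so the 2 shares are not comparable evidence. Each value is the difference at 100 mM minus the difference at 0 mM, in log2 units. It can come from a change with salt in Col, in M6PR or in both. Over the 15 largest rises the median level at 0 and 100 mM was 5.11 and 9.29 in Col, and 10.40 and 9.01 in M6PR. Over the 15 largest falls it was 8.97 and 6.96 in Col, and 5.56 and 6.88 in M6PR. The difference was lower at 100 mM than at 0 mM in EXLA1 (-6.16), AT3G15630 (-6.17), AT3G15450 (-5.63), EXO (-4.93), AT3G59350 (-6.26), AT5G19120 (-4.72), AT2G25735 (-4.97), ATPMEPCRB (-5.09), AT1G54740 (-3.92), AT1G19380 (-5.12), AT5G61590 (-3.43), AT1G22890 (-4.39), ATL8 (-2.08), MCCA (-1.67), AKINBETA1 (-2.50), XTH18 (-3.99), WRKY22 (-4.05), STZ (-4.20), CCS (-1.13), LTI30 (-3.09), AT5G06700 (-1.07), BGLU16 (-2.48), CSLD2 (-1.86), BZIP60 (-1.26), 252265_at (-4.55), 256763_at (-3.18), 262360_at (-2.42), XTH16 (-3.66), CML37 (-1.30), CML23 (-1.92) and GRX480 (-2.09).

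The difference was higher at 100 mM than at 0 mM in AT2G15020 (5.69), AT4G14090 (3.83), AT1G60590 (3.59), AT1G20070 (3.62), AT2G27420 (4.84), GH9C2 (2.55), UF3GT (3.23), AT2G44940 (3.22), AT5G01790 (3.22), AT1G48100 (3.17), AT5G42760 (2.87), AT3G44450 (3.06), AT5MAT (3.0), TBL26 (3.44), TRY (2.82), EXPA4 (1.67), EXPA8 (3.33), EXPB1 (2.64), UGT78D2 (2.81), AT2G31790 (1.43), GIS (2.68), XTH32 (1.49), UGT72B3 (1.54), GSTU23 (1.2), CYP71B28 (1.16), CYP78A9 (3.19), BGLU47 (2.38), CSLA01 (3.19), SWEET1 (1.70), AtVEX1 (0.94), bHLH34 (2.15) and LHCB4.3 (1.05). XTH16, CML37, CML23, GRX480 and LHCB4.3 are the 5 that did not pass without salt. The number of probe sets passing this test over the whole array was 1382, 367 once the 2 arrays whose dap spike-in was low were removed and between 150 and 3860 when 1 array was left out.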

How the results depend on the processing

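The count of 2346 probe sets between M6PR and Col at 0 mM was 5332 with array weights, 4714 in a fit of only the 4 arrays (chosen after seeing the data), and 944 to 1220 with 1 of the 4 arrays left out; it was 2377 after quantile normalization, 2256 after centring on the median (1187 higher and 1069 lower), 2327 without the dimmest 40% and 2181 with a trended prior. The 8 calls against Col(gl) were 28 once the 2 arrays whose dap spike-in was low were removed (replicate 1 of Ws and of Col at 100 mM; 21 higher and 7 lower), 261 with array weights (164 higher and 97 lower) and 4 to 7 with 1 array left out. The 1382 interaction calls were 367 without those 2 arrays, 2358 with array weights and 150 to 3860 with 1 array left out. A replicate block gave 2451, 10 and 1412 calls. The labels do not say what a replicate number shares; the correlation of replicate differences was 0.13 between M6PR and Col at 0 mM and -0.15 at 100 mM, 0.55 between M6PR at 0 and at 100 mM, and between -0.15 and 0.22 for the other pairs of groups, so the numbers were not taken as pairs. No named gene that passed changed sign under any setting run. Of the 140 named genes 18 changed sign under some setting, none of which passed before or after it; with 1 array left out their differences were MCCB (-0.05 to 0.18), XTH20 (-0.07 to 0.26), CML37 (-0.10 to 0.56), AT1G76640 (-0.19 to 0.05), CML23 (-0.01 to 0.27), AT2G28200 (-0.17 to 0.33), PDF1.2 (-2.47 to 1.12), GLDH (-0.13 to 0.20), AT2G18480 (-0.20 to 0.53), TAPX (-0.12 to 0.05), COR15A (-0.55 to 0.05), AT3G02480 (-0.00 to 1.18), ATHSP22.0 (-0.00 to 0.10), PSBY (-0.06 to 0.07), PSBW (-0.00 to 0.07), PYK10 (-0.42 to 0.20), EXPA18 (-0.25 to 0.14) and SPCH (-0.08 to 0.04). PSBY was at -0.00 after quantile normalization, and SPCH at 0.03 after it and 0.01 after centring. Of the 30 genes with the largest changes 29 kept their call under each array left out. Where a count moved, the cause was not tested, and with 1 array left out its group had only 1 array. Signal over background was not tested, since detection calls were not analysed here.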
